A study of Mus musculus with 24 samples.

Results

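Accessible chromatin was followed at 10 genes of the goblet cell, the mucus-secreting cell of the gut, in sorted small intestinal epithelium of aged and young mice. The genes were Atoh1, Spdef, Foxa1 and Foxa3, which encode transcription factors, Agr2, which encodes a protein of the endoplasmic reticulum, and Muc2, Tff3, Fcgbp, Clca1 and Zg16, which encode secreted products. Every ATAC-seq peak that the deposited annotation assigned to one of these genes and placed within 50000 bp of its transcription start site (TSS) was taken, which gave 85 of the 150646 peaks. Atoh1 and Agr2 had 15 peaks each, Tff3 and Clca1 11 each, Foxa1 10, Spdef 8, Muc2 6, Foxa3 5, Zg16 3 and Fcgbp 1. Of the 85 peaks, 79 had enough counts to be tested, among 129588 tested peaks in all.

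Aged mice were compared with young mice, both of the strain C57BL/6JRj with no further genotype or treatment in the labels, and with 3 libraries per age (aged 1, 2 and 4, and young 1, 2 and 4). ATAC-seq uses the Tn5 transposase to cut open chromatin and tag the ends, so the count in a peak measures how accessible that stretch is. The epithelium was freshly isolated and sorted for EpCam, carried by epithelial cells, and against CD45, carried by leukocytes. The series text gives 20 to 22 months for aged mice and 2 to 3 months for young mice, in sentences on the other assays of the series, while the labels of these libraries say only aged or young. Whether every library is a different mouse is not stated, and the p-values measure the spread between libraries, which may be partly technical.

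Counts in peaks totalled 16900796 to 23935291 in the aged libraries and 6149680 to 22819924 in the young libraries. The lowest total, that of young 4, was 3.89-fold below the highest. It also stood farthest out on the first principal component (37.3% of the variance), at 112, where the aged libraries lay between -59.6 and -27.2 and the other young ones at -4.57 and 21.5. Goblet cells are a minority of the sorted epithelium, and in these pooled cells fewer goblet cells and less accessibility per goblet cell cannot be told apart. Counts from other epithelial cells cannot be separated from those of goblet cells either, so the values may not be of goblet cells alone. Intervals in the form mean ± SD rest on n = 3 libraries per age throughout. CPM, the normalised count, relates each count to the scaled total of its library, and each log2 fold change divides aged by young and carries a standard error (SE).

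Goblet cells arise in the crypt from progenitors that escape Notch signalling and switch on Atoh1, a basic helix-loop-helix factor needed for all secretory cells of the intestine. Spdef, an ETS-domain factor, acts downstream of Atoh1 in the maturation of goblet and Paneth cells, and the forkhead factors Foxa1 and Foxa3 bind regulatory DNA of many gut and liver genes. Mature goblet cells pack the gel-forming mucin Muc2 into granules and release it with the trefoil peptide Tff3, the Fc-gamma-binding protein Fcgbp, the protease Clca1 and the lectin-like protein Zg16. Agr2 is a protein disulfide isomerase of the endoplasmic reticulum that is required for mucin production.

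RefSeq promoter windows of 300 bases (250 before and 50 after the start, GRCm38.p6) were listed for 7 of the 10 genes. The windows of 4 genes are shown. Foxa1 carried the peak with the clearest age difference, but that peak lay 2413 bp upstream, outside the printed window. Foxa3 had 2 peaks within 1000 bp whose summed counts did not overlap between the ages. Its printed window lay inside the start-site peak, where, taken alone, the ages overlapped. Muc2 and Fcgbp had their main start-site peak away from the TSS used in the deposited annotation. Capitals mark matches to the motifs described after them.
Foxa1 (minus strand, chr12:57546062-57546361): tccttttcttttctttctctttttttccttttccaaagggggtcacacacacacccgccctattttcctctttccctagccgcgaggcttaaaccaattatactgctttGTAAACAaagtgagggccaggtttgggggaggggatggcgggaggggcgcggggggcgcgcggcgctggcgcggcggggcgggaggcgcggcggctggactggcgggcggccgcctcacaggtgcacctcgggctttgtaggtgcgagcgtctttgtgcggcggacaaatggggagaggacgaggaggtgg
Foxa3 (minus strand, chr7:19023490-19023789): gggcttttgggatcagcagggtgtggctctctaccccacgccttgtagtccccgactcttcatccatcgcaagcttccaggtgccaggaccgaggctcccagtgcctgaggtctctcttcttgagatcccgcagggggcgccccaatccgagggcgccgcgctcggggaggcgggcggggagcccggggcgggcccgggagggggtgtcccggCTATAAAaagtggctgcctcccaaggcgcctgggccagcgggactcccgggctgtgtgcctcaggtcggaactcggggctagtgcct
Muc2 (plus strand, chr7:141690090-141690389): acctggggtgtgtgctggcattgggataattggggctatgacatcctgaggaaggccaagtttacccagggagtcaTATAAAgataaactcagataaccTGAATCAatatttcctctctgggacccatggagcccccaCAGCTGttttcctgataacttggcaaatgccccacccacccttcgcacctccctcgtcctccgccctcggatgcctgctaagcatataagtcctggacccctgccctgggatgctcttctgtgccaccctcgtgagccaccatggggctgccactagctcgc
Fcgbp (plus strand, chr7:28070986-28071285): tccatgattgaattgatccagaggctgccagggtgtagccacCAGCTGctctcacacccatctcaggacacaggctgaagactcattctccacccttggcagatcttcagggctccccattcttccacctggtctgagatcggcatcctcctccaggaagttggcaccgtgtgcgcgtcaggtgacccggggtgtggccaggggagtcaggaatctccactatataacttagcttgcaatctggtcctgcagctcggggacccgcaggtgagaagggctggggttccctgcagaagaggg

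The windows of the transcription factor genes Foxa1, Foxa3 and Atoh1 held 26, 22 and 20 CpG dinucleotides, against a median of 7 over all 32851 promoter windows. Those of Spdef, Agr2 and Fcgbp held 7 each and that of Muc2 held 6. GC content was 69.0% for Foxa3, 62.3% for Foxa1, 58.3% for Fcgbp, 56.7% for Atoh1, 55.3% for Muc2, 53.3% for Spdef and 47.3% for Agr2, with a median of 52.7% over all windows. The windows of Foxa3, Muc2 and Fcgbp lay wholly inside a peak (300 bases each). Of the other windows, peaks covered 275 bases for Atoh1, 233 for Spdef, 211 for Agr2 and 94 for Foxa1.

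Motif matches were searched on both strands. CAGCTG, an E-box of the kind that basic helix-loop-helix factors bind, began 112 bases before the start of Muc2 and 208 bases before that of Fcgbp, and was held by 16.3% of all windows. TGTTTAC, a forkhead motif, was present in the Foxa1 window on the strand opposite to the printed one, where it reads GTAAACA as printed, 141 bases before the start, in the stretch between the peaks at the promoter and the first exon, and 3.65% of all windows held it. TTTATNG, a motif of the intestinal CDX factors, was found on the opposite strand 37 bases before the start of Foxa3 and 48 before that of Agr2 (10.9% of all windows). TATAAA lay 36 bases before the start of Foxa3, overlapping that CDX match, and 174 before the start of Muc2 (13.6%). The AP-1 motif TGANTCA occurred in Muc2, 151 bases before the start (7.81%). No window of the 7 held the E-box CAGATGG (5.30% of all windows), the HNF4 motif CAAAGTCCA (0.475%) or the ETS motif CCGGAAG (8.86%). A match describes the letters of a window, not a bound site.

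Across the goblet cell genes a single peak passed the test between the ages, upstream of Foxa1, and the remaining peaks were spread evenly about 0. Of the 79 tested peaks 1, or 1.27%, passed the quasi-likelihood test of edgeR at an adjusted p (Benjamini-Hochberg) below 0.05, the threshold for a call, against 1.60% of all tested peaks. It was lower in aged, a direction called at 0.528% of all peaks, and no peak was called higher. The log2 fold changes were above 0 at 40 peaks and below 0 at 39, with a median of 0.0089 against -0.0038 over all peaks. Their median size regardless of sign was 0.17, against 0.16 over all peaks. At 8 peaks the ages did not overlap (10.1%, 3 higher and 5 lower in aged), against 13.9% of all peaks, and 4 peaks (5.06%) had an unadjusted p below 0.05, against 8.82%. These shares were near or below the background, apart from that of calls lower in aged, which rests on 1 peak.

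**Figure D1:**
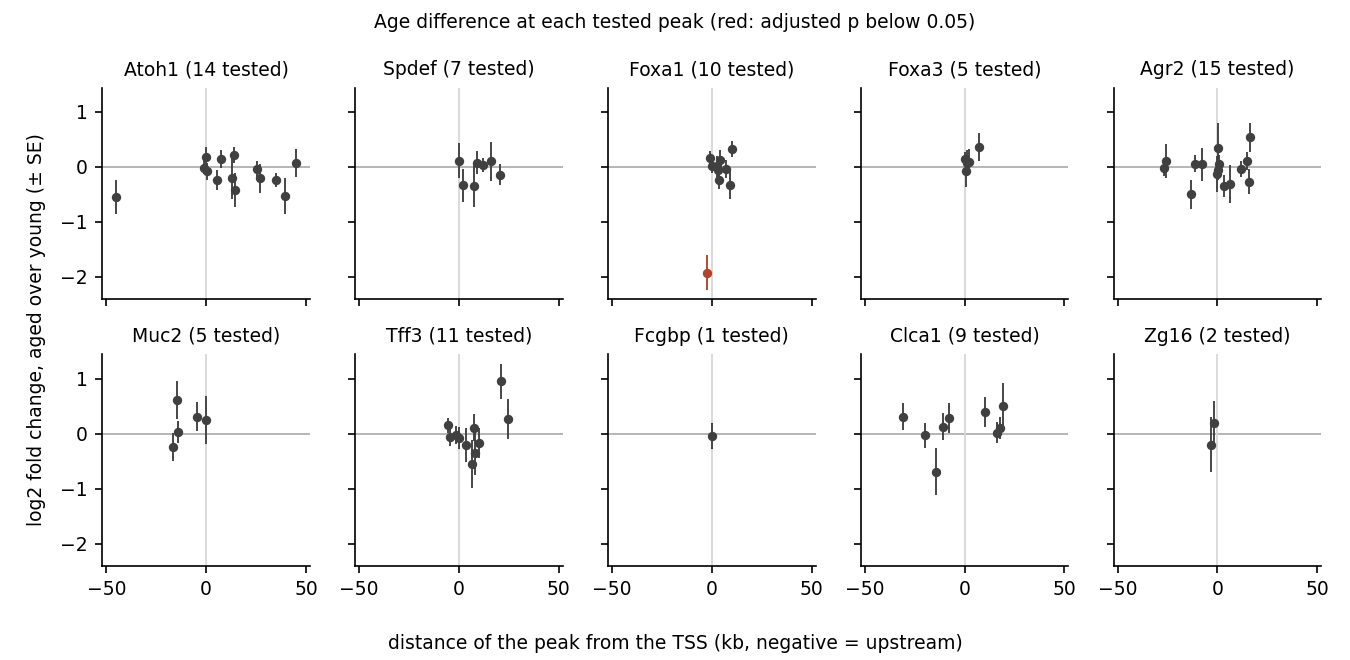
Log2 fold change of each tested peak (aged over young, bars are the SE) against its distance from the TSS in kb, 1 panel per gene, with the peak at an adjusted p below 0.05 in red. The Foxa1 peak at -1.92 stands far below all other tested peaks, which lie between -0.69 and 0.95.

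The total accessibility of the members was also close. Summed over the 85 peaks it was 387, 452 and 416 CPM in aged 1, 2 and 4, against 402, 428 and 404 CPM in young 1, 2 and 4. The peaks of the 4 transcription factor genes summed to 243, 263 and 252 CPM in aged, against 252, 257 and 230 CPM in young. Those of Agr2 summed to 67.4, 77.6 and 75.1 CPM in aged, against 68.4, 76.9 and 80.9 CPM in young. Those of the secreted product genes summed to 76.9, 112 and 88.0 CPM in aged and 82.2, 94.7 and 92.5 CPM in young. Aged 1 was the lowest and aged 2 the highest of all 6 libraries there, so the young values lay inside the aged range.

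**Figure D2:**
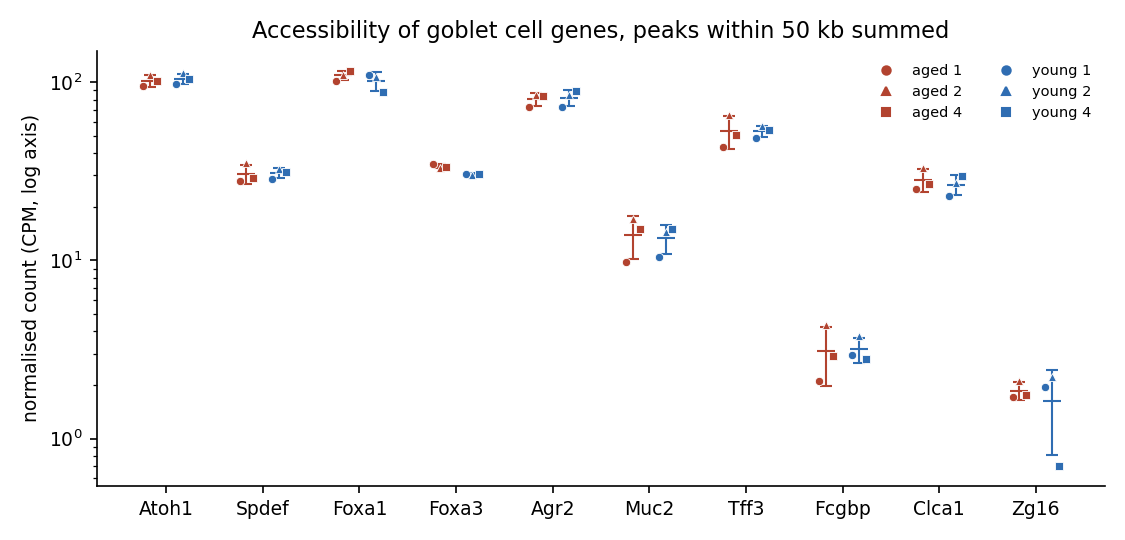
Accessibility of each gene in CPM (log axis), with counts summed over its peaks within 50 kb of the TSS, in the 3 aged (red) and 3 young (blue) libraries; horizontal bars are means and vertical bars SD, and the marker shape gives the library number. The ages overlap at every gene but Foxa3, where aged libraries lie between 33.0 and 34.9 CPM and young ones between 30.2 and 30.7 CPM. The share of all genes whose ages do not overlap was not counted.

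Summed over all its peaks within 50000 bp, no gene of the 10 was called (0 of 10, with 0 at an unadjusted p below 0.05 and 0 called by DESeq2), against 1.84% of 27234 genes. The log2 fold changes lay between -0.04 for Atoh1 and 0.15 for Foxa3, and SE ran from 0.07 for Atoh1 to 0.31 for Zg16. Within 1000 bp of the TSS, 8 genes could be tested and again none was called (0 by edgeR, 0 by DESeq2 and 0 at an unadjusted p below 0.05), against 1.74% of 13880 promoters. Clca1 had no peak within 1000 bp of its annotated TSS, and the peak of Zg16 there had too few counts. Sums per gene are scaled to the counts assigned to genes within the given distance, so they are higher than the sums of single-peak CPM given before. The 8 promoter values ran from -0.06 for Tff3 to 0.43 (SE 0.42) for Muc2. The Muc2 value rests on 2 small peaks, with 8 to 30 summed counts in aged and 7 to 18 in young. They lie at an annotated TSS 13825 bp from the RefSeq start of Muc2, where the peak stood at 0.03 (SE 0.20). For Fcgbp, too, the TSS used lies 42591 bp from the RefSeq start.

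Foxa1 (ENSMUSG00000035451, chromosome 12, minus strand) carried the called peak. It was a narrow intergenic peak of 100 bp at chr12:57548485-57548584, 2413 bp upstream of the TSS and 456 bp beyond the outer limit of the RefSeq gene. It held 0.801, 0.669 and 0.511 CPM in aged 1, 2 and 4, against 2.11, 2.92 and 2.55 CPM in young 1, 2 and 4. Every aged library lay below every young one. The means were 0.660 ± 0.145 CPM in aged and 2.52 ± 0.409 CPM in young, a 3.79-fold fall in aged (-1.92 on the log2 scale, SE 0.31, edgeR adjusted p = 0.000152).

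The counts behind that call were low, 13, 16 and 9 counts in aged and 46, 59 and 16 in young, or 38 in aged and 121 in young in all. It was made under every alternative run, with log2 fold changes between -2.07 and -1.77 and adjusted p between 4.38e-07 and 0.00734. By CPM per kb of peak it stood at the 64.3rd percentile of tested peaks, with 15.9 CPM per kb over its short width, and by CPM alone at the 33.9th.

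The other 9 peaks of Foxa1 were not called. The peak at -685 bp, which the annotation places at the promoter, held 38.5, 43.5 and 46.7 CPM in aged, against 40.8, 39.3 and 33.1 CPM in young (log2 fold change 0.17, SE 0.12). At 52.2 CPM per kb it was the most accessible of the tested goblet gene peaks and lay at the 94.4th percentile of all peaks. The peak over the first exon, 230 bp from the TSS, held 17.8 ± 0.792 CPM in aged and 17.1 ± 3.72 CPM in young (0.02, SE 0.13). A peak at 9934 bp, past the other end of the gene, held 11.1, 13.4 and 14.9 CPM in aged, against 9.84, 11.5 and 9.87 CPM in young (0.33, SE 0.14). Its unadjusted p was 0.0278 and its adjusted p 0.447 by edgeR, and the ages overlapped. Summed over its 10 peaks, Foxa1 held 109 ± 6.90 CPM in aged and 102 ± 11.9 CPM in young (log2 fold change 0.09, SE 0.08).

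**Figure D3:**
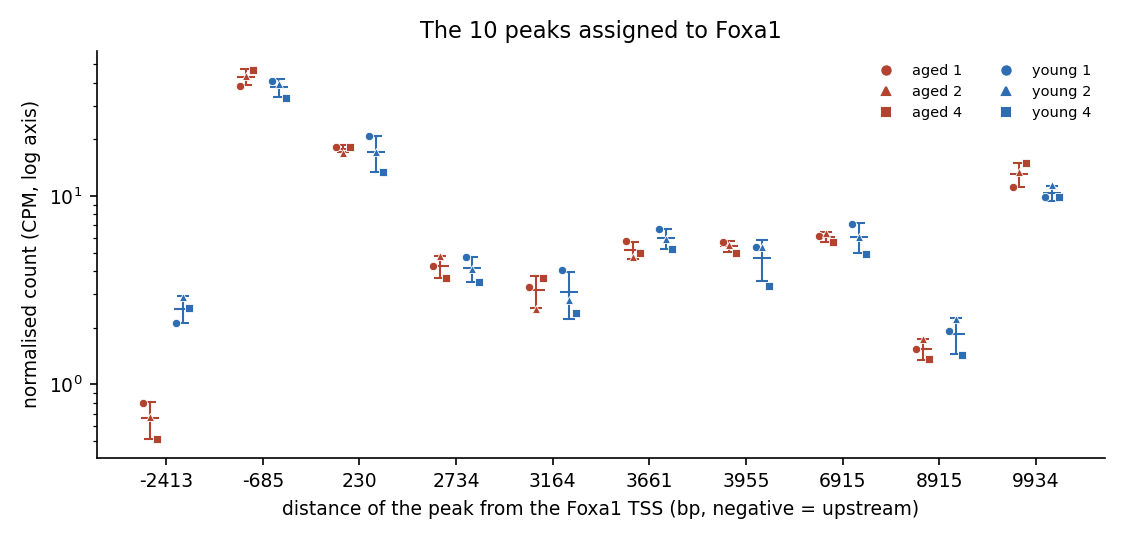
Normalised counts (CPM, log axis) at the 10 peaks assigned to Foxa1, ordered by distance from the TSS (bp), in the 3 aged (red) and 3 young (blue) libraries with mean and SD. At -2413 bp the aged libraries lie between 0.511 and 0.801 CPM and the young between 2.11 and 2.92 CPM, and at each of the other 9 peaks the ages overlap.

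Atoh1 (ENSMUSG00000073043, chromosome 6), the factor that commits progenitors to the secretory fate, is a short gene in a wide intergenic stretch, and 13 of its 15 peaks were intergenic. Summed over all 15 peaks, Atoh1 held 94.9, 110 and 101 CPM in aged, against 98.0, 112 and 104 CPM in young. Each age spanned nearly the same range, and the log2 fold change was -0.04 (SE 0.07). The most accessible peak per kb, 1188 bp upstream, held 23.2 CPM in each aged library, against 24.0, 24.5 and 21.0 CPM in young (-0.01, SE 0.12). The promoter peak at -251 bp held 7.38 ± 0.412 CPM in aged and 6.23 ± 1.50 CPM in young (0.19, SE 0.17).

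At 3 distal peaks of Atoh1 every aged value lay below every young one, though none was called. That was 21.4% of its 14 tested peaks, against 13.9% of all peaks. The peak 34834 bp downstream held 11.2, 11.5 and 10.3 CPM in aged, against 12.6, 13.2 and 13.5 CPM in young (-0.24, SE 0.13, adjusted p = 0.661 by edgeR). The peak at 5608 bp held 4.46 CPM on average in aged and 5.25 CPM in young (-0.24, SE 0.18). The peak at -44983 bp held 1.07 ± 0.135 CPM in aged and 1.66 ± 0.364 CPM in young (-0.55, SE 0.31). Of the 14 tested Atoh1 peaks, 10 were below 0 and 4 above it, with a median of -0.14. The 50000 bp limit touched Atoh1 alone: the outermost peaks inside it lay at -44983, 41140 and 45089 bp with 1.36, 0.348 and 3.24 CPM on average, and the nearest outside at 55331, 69860, 70501 and -79083 bp with 0.324, 0.811, 2.40 and 1.52 CPM.

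Spdef (ENSMUSG00000024215, chromosome 17), the maturation factor, had 5 of its 8 peaks in introns. Of these, the peak at 20646 bp lay in an intron of another gene (ENSMUSG00000040276). The sum over its peaks was 28.0, 35.1 and 29.0 CPM in aged, against 28.7, 32.8 and 31.4 CPM in young. Aged 1 was the lowest and aged 2 the highest library, and the log2 fold change was -0.0040 (SE 0.11). Its strongest peak lay in an intron 11827 bp into the gene, with 13.4, 12.8 and 13.7 CPM in aged, against 12.3, 12.5 and 14.8 CPM in young (0.04, SE 0.13). The peak at the start, -102 bp from the TSS, was low, with 1.44 ± 0.599 CPM in aged and 1.27 ± 0.416 CPM in young, and stood at the 11.6th percentile of CPM per kb. The intronic peak at 2197 bp had the smallest p of Spdef, with 1.42 CPM on average in aged and 1.87 CPM in young (-0.33, SE 0.30, adjusted p = 0.891 by edgeR).

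Foxa3 (ENSMUSG00000040891, chromosome 7) had its 5 peaks at the start or in introns. Its summed accessibility was 34.9, 33.0 and 33.6 CPM in aged, against 30.7, 30.2 and 30.7 CPM in young. Every aged library lay above every young one. The difference was small, 0.15 on the log2 scale (SE 0.09, adjusted p = 0.783 by edgeR), and was not called. No overlap was seen at 13.9% of all tested peaks, and its share over all genes or promoters was not counted. Summed within 1000 bp the ages did not overlap either, at 70.1, 63.5 and 68.8 CPM in aged, against 59.4, 62.3 and 60.3 CPM in young (0.15, SE 0.09), on the scale of promoter counts. The start-site peak alone held 22.0, 19.4 and 21.0 CPM in aged, against 19.6, 18.7 and 17.2 CPM in young, and there the ages overlapped. The annotation names Sympk, the neighbouring gene, for that peak, so its counts cannot be assigned to Foxa3 alone. The intronic peak at 7356 bp held 2.82 CPM on average in aged and 2.41 CPM in young (0.36, SE 0.25).

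Agr2 (ENSMUSG00000020581, chromosome 12), the disulfide isomerase gene, had 15 peaks, all tested, and 7 were above 0 and 8 below. They summed to 72.2, 84.9 and 83.2 CPM in aged, against 72.6, 84.5 and 89.2 CPM in young (-0.02, SE 0.08). The 2 libraries numbered 1 were the lowest of their age and differed little from each other. The strongest peak, at the end of the gene 11967 bp from the TSS, held 12.8, 11.9 and 14.9 CPM in aged, against 13.7, 12.3 and 15.0 CPM in young (-0.04, SE 0.14). The start-site peak at 80 bp held 5.24 ± 0.280 CPM in aged and 5.36 ± 0.669 CPM in young (-0.06, SE 0.18). A peak 16312 bp downstream held 2.47, 2.09 and 3.35 CPM in aged, against 2.01, 1.58 and 1.75 CPM in young, with no overlap (0.54, SE 0.26). It had an unadjusted p of 0.0441 and an adjusted p of 0.540 by edgeR and was not called. In the other direction, the intronic peak at 3112 bp held 3.41 CPM on average in aged and 4.35 CPM in young, again with no overlap (-0.34, SE 0.20).

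Muc2 (ENSMUSG00000025515, chromosome 7), the gene of the gel-forming mucin, had 6 peaks. Its summed accessibility was 9.77, 17.0 and 15.0 CPM in aged, against 10.5, 14.4 and 15.1 CPM in young. The library numbered 1 was the lowest in each age, the ages overlapped, and the log2 fold change was 0.10 (SE 0.18). The largest peak, at chr7:141689706-141690416, spanned the RefSeq start of Muc2 shown above and held 4.62, 8.73 and 6.42 CPM in aged, against 5.17, 7.18 and 7.96 CPM in young (0.03, SE 0.20). Just upstream of it, a peak at -14670 bp held 0.863, 1.75 and 1.36 CPM in aged, against 0.824, 0.990 and 0.796 CPM in young (0.61, SE 0.34, adjusted p = 0.678 by edgeR). The most accessible peak per kb, at -4401 bp, held 2.13 CPM on average in aged and 1.75 CPM in young (0.31, SE 0.27). The peak nearest to the annotated TSS that was tested, at 137 bp, held 0.739 CPM on average in aged and 0.629 CPM in young (0.25, SE 0.44).

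Tff3 (ENSMUSG00000024029, chromosome 17), the trefoil peptide gene, had 11 tested peaks. Together these held 43.5, 65.7 and 50.9 CPM in aged, against 48.9, 56.6 and 53.7 CPM in young. The aged libraries lay on both sides of all young ones (log2 fold change 0.02, SE 0.11). The start-site peak at -54 bp held 5.24, 8.02 and 5.11 CPM in aged, against 6.59, 7.87 and 4.14 CPM in young (-0.08, SE 0.20). Upstream, the peak at -4298 bp had the highest CPM per kb of the gene, with 9.33 CPM on average in aged and 9.99 CPM in young (-0.06, SE 0.16).

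Of the peaks that were not called, a distant Tff3 peak had the smallest adjusted p. It lay at chr17:31108494-31108698, 21050 bp from the Tff3 TSS and within an intron of another gene, Abcg1, and held 1.36, 1.88 and 2.90 CPM in aged, against 1.33, 0.743 and 1.11 CPM in young. The ages did not overlap, by a margin of 1.36 against 1.33 CPM, at 0.95 on the log2 scale (SE 0.32, unadjusted p = 0.00566, adjusted p = 0.190 by edgeR). Its counts were 22, 45 and 51 in aged, against 29, 15 and 7 in young.

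Fcgbp (ENSMUSG00000047730, chromosome 7), which encodes a large protein of the mucus gel, had 1 peak by the distance rule, at 49 bp from the annotated TSS. It held 1.97, 3.97 and 2.61 CPM in aged, against 2.79, 3.42 and 2.55 CPM in young (-0.04, SE 0.24), and stood at the 6.12th percentile of CPM per kb. The RefSeq start of Fcgbp lies 42591 bp from that TSS and had its own peak, at chr7:28070754-28071341, which the table assigned to Psmc4 at -23529 bp. That start-site peak held 26.3, 31.3 and 28.8 CPM in aged, against 29.0, 29.6 and 29.3 CPM in young. The young values lay within the aged range, at -0.02 on the log2 scale (SE 0.11, adjusted p = 0.991 by edgeR). It stood at 49.4 CPM per kb, the 93.6th percentile of tested peaks. In all, 16 peaks were annotated to the body or promoter of Fcgbp, 15 of them assigned by distance to Psmc4, Gm10935 or Gm24356. Of these 16 peaks 12 were tested and none was called. The peak in exon 3 of 20 held 1.85, 2.42 and 2.04 CPM in aged, against 1.01, 1.83 and 0.637 CPM in young. There the ages did not overlap (0.73, SE 0.30, unadjusted p = 0.0196, adjusted p = 0.381 by edgeR), and at all the others they overlapped.

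Clca1 (ENSMUSG00000028255, chromosome 3), the gene of the mucus protease, had 11 peaks of low height. Its summed accessibility was 25.2, 33.1 and 26.8 CPM in aged, against 23.0, 27.2 and 29.7 CPM in young (0.12, SE 0.12). The ages overlapped. The peak next to the RefSeq start, -14197 bp from the annotated TSS, held 0.308, 0.794 and 0.454 CPM in aged, against 1.05, 0.594 and 1.11 CPM in young (-0.69, SE 0.43, adjusted p = 0.751 by edgeR). Young 2 lay below aged 2 there. The most accessible peak, intergenic at 16326 bp, held 4.88 CPM on average in aged and 4.92 CPM in young (0.02, SE 0.19). An intronic peak at -8052 bp held 1.60, 2.01 and 1.82 CPM in aged, against 1.51, 1.44 and 1.59 CPM in young, a margin of 0.28 (SE 0.27) on the log2 scale with no overlap and an adjusted p of 0.905 by edgeR.

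Zg16 (ENSMUSG00000049350, chromosome 7), whose product binds the wall of Gram-positive bacteria, had 3 small peaks. The summed accessibility was 1.72, 2.10 and 1.76 CPM in aged, against 1.94, 2.23 and 0.703 CPM in young (0.04, SE 0.31). Young 4 was the lowest, and its total for the gene was 4 counts. The peak by the start, at -791 bp, held 0.482 CPM on average in aged and 0.430 CPM in young and was too low to test. The other peaks, at -3244 and -1850 bp, had log2 fold changes of -0.20 (SE 0.50) and 0.19 (SE 0.41).

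Per kb of peak, the forkhead genes Foxa1 and Foxa3 were the most accessible, and 4 of the 5 secreted product genes, Clca1, Muc2, Zg16 and Fcgbp, the least. Within 50000 bp, Foxa1 stood at 40.0 CPM per kb, Foxa3 at 30.2, Agr2 at 17.5, Atoh1 at 17.3, Tff3 at 15.2, Spdef at 11.9, Clca1 at 8.61, Muc2 at 8.00, Zg16 at 4.77 and Fcgbp at 4.42, as means over the 6 libraries on the scale of sums per gene. The library ranges of neighbours in that order did not overlap between Foxa1 and Foxa3, between Foxa3 and Agr2, and between Spdef and Clca1. All other neighbours overlapped. Among all tested peaks, the median peak of the transcription factor genes stood at the 64.8th percentile of CPM per kb, that of Agr2 at the 54.2nd and that of the secreted product genes at the 28.3rd. Foxa1 led with a median at the 84.1st percentile and Fcgbp was last with its single peak. The order leaves out the Fcgbp start-site peak, which is far more accessible than the peak the rule assigned.

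**Figure D4:**
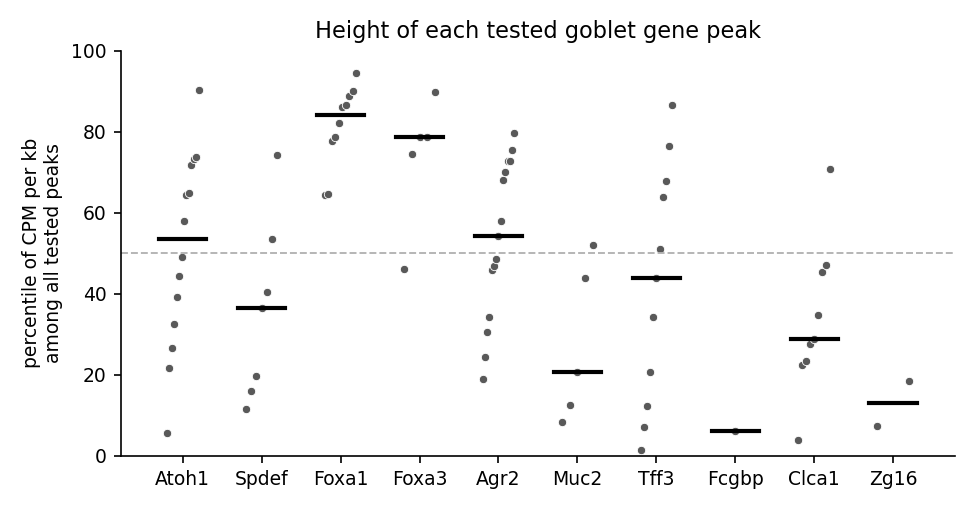
Percentile of each tested peak by CPM per kb among all tested peaks (mean of the 6 libraries), 1 column of points per gene with the gene's median as a black bar and the 50th percentile dashed. The points of Foxa1 lie between 64.3 and 94.4, while the 5 tested Muc2 peaks reach 52.1 at most.

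Most peaks lay more than 1000 bp from the annotated TSS, with 16 of them inside that distance. Of the 85, 42 were intergenic (49.4%, against 34.9% of all peaks), 20 lay in introns, 13 at an annotated promoter (15.3%, against 13.8%), 7 in exons and 3 at a transcription end. Their median width was 255 bp, against 223 bp for all peaks. Atoh1 had the largest share of intergenic peaks, 86.7%, and Foxa3 had none.

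The start site used for the distances differed from the RefSeq start (that of the promoter window, or the gene limit where none was listed) by 13825 bp at Muc2, 13861 bp at Clca1, 42591 bp at Fcgbp and 698 bp at Zg16, and by 62 bp or less at the other 6 genes. At Foxa1 and Spdef the RefSeq gene limit lies farther upstream than that start, at 57548029 against 57546111 and at 27731003 against 27728951. Given the differences in start site, accessibility was also read at the peak nearest to the RefSeq start of each gene. These 10 peaks belonged to the members apart from that of Fcgbp. Of them 9 were tested and none was called (edgeR, with no unadjusted p below 0.05), with log2 fold changes between -0.69 at Clca1 and 0.19 at Atoh1. The start-site peak of Fcgbp was at 49.4 CPM per kb, that of Foxa3 at 39.4, Foxa1 at 33.1, Tff3 at 15.8, Atoh1 at 13.4, Agr2 at 12.1, Muc2 at 9.40, Spdef at 4.73, Zg16 at 3.80 and Clca1 at 3.69.

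**Figure D5:**
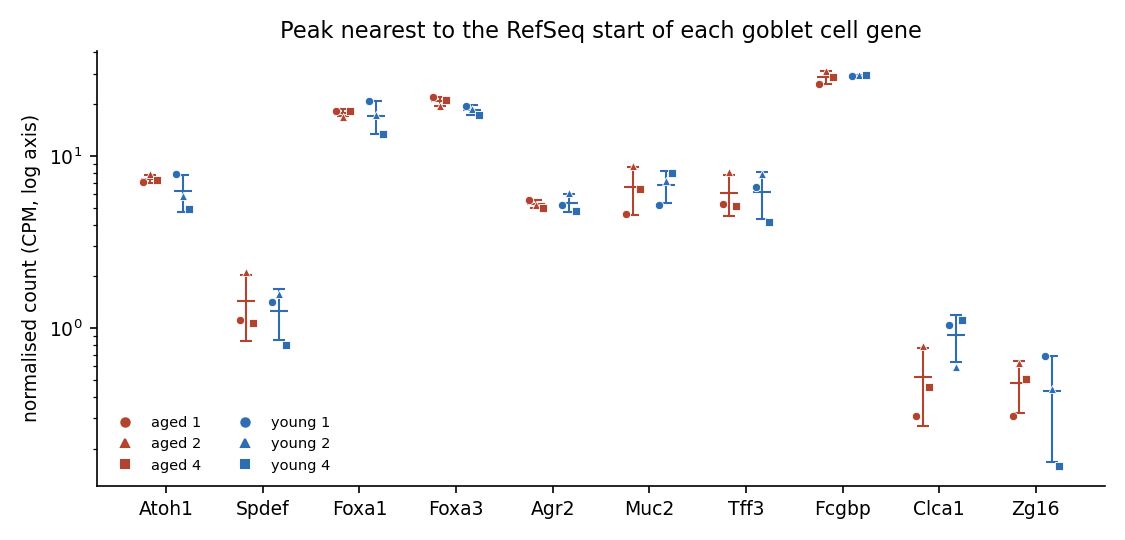
Normalised counts (CPM, log axis) at the peak nearest to the RefSeq start of each gene in the 3 aged (red) and 3 young (blue) libraries, with mean and SD. The ages overlap at all 10 start sites, and the Fcgbp peak is the highest, between 26.3 and 31.3 CPM.

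Genes that act beside the members were read from 4 wider lists. Among mucus products, which cover other mucins, trefoil factors and secreted defence proteins, 18 of 24 genes were tested within 50000 bp and none was called (edgeR, 0 at an unadjusted p below 0.05, 0 by DESeq2). The median log2 fold change was 0.03, against -0.0025 over all genes. Retnlb, which encodes the goblet cell defence protein RELM-beta, had the smallest p of the list, with 7.72, 11.2 and 8.86 CPM in aged, against 9.62, 12.9 and 14.4 CPM in young (-0.36, SE 0.18, adjusted p = 0.571 by edgeR). Klk1, a kallikrein protease gene, held 37.6 ± 2.31 CPM in aged and 32.6 ± 5.39 CPM in young (0.17, SE 0.11).

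Among genes of mucin synthesis, glycosylation and the endoplasmic reticulum, 28 of 29 were tested, 17 above 0 and 11 below, and none was called (1 at an unadjusted p below 0.05, 0 by DESeq2; median 0.0046). Galnt4, which encodes an enzyme that starts O-glycans on mucins, held 99.9, 91.7 and 91.6 CPM in aged, against 79.1, 83.2 and 73.6 CPM in young. Every aged library was above every young one, a difference of 0.25 on the log2 scale (SE 0.07, adjusted p = 0.0878 by edgeR). With the replicate number as a block its adjusted p was 0.00301. Galnt7, of the same enzyme family, had values the other way round with no overlap, 92.5 ± 1.42 CPM in aged and 100 ± 3.31 CPM in young (-0.12, SE 0.07, adjusted p = 0.691 by edgeR). Ern1, the sensor of unfolded proteins, held 93.7 CPM on average in aged and 102 CPM in young (-0.12, SE 0.07).

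Among genes of granule release and other goblet genes, all 24 were tested, with a median of -0.01. Of these 1, Capn9, was called, higher in aged (1 by DESeq2), against 1.84% of 27234 genes. It was the only call of the 4 lists within 50000 bp. Capn9, which encodes a calpain protease of gastrointestinal epithelium, held 12.4, 12.9 and 15.5 CPM in aged, against 6.99, 8.22 and 10.0 CPM in young, with no overlap. It rose by 0.74 on the log2 scale (SE 0.16, adjusted p = 0.0129 by edgeR, 0.000304 with the replicate number as a block). The call was lost without aged 4 (0.64, adjusted p = 0.0910), without young 1 (0.61, adjusted p = 0.0841) and without young 2 (0.75, adjusted p = 0.0898).

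The called peak of the Capn9 locus lay beyond the peaks annotated to Capn9 itself. This peak, at chr8:124634974-124635560, 21827 bp from the TSS and at the transcription end of another gene (ENSMUSG00000031983), held 5.79, 5.60 and 6.64 CPM in aged, against 2.79, 2.18 and 2.39 CPM in young (1.28, SE 0.20, adjusted p = 0.000117 by edgeR). None of the 4 other tested peaks assigned to Capn9 was called. Its neighbour at 22473 bp, in the last exon of that other gene, stood at 0.66 on the log2 scale (SE 0.27, adjusted p = 0.384 by edgeR). The peaks in introns of Capn9 stood at 0.31 (SE 0.50) and 0.37 (SE 0.25). Another stood at 0.09 (SE 0.42), annotated to a transcription end of Capn9 though it precedes a peak in exon 9 of 20. The annotated TSS of Capn9, from which the distances were taken, lies between the peaks in introns 13 and 18 of 19. That site is inside the gene, and the RefSeq start of Capn9 was not checked.

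Among genes of secretory fate and Notch signalling, 32 of 34 were tested, 16 on each side of 0, and none was called (2 at an unadjusted p below 0.05, 0 by DESeq2; median 0.0020). Lfng, which modifies Notch receptors, held 78.4, 91.1 and 94.6 CPM in aged, against 77.1, 85.1 and 68.0 CPM in young (0.18, SE 0.09, adjusted p = 0.523 by edgeR). Hes5, a Notch target gene, held 53.4 ± 1.57 CPM in aged and 46.2 ± 4.87 CPM in young (0.19, SE 0.09). At promoters the 4 lists had 10, 23, 17 and 29 tested genes and no call (edgeR; 0, 1, 0 and 1 at an unadjusted p below 0.05, and 0 by DESeq2). Genes of these lists that had no counted peak, among them Tff1, Notch1 and Zg16b, were not analysed here.

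Marker genes gave a partial check of the sort. Per listed gene within 50000 bp, general epithelial genes held 314 CPM on average and leukocyte genes 3.16 CPM. Stromal, endothelial and nerve genes, at 22.6 CPM, lay above Paneth (9.19 CPM), tuft (12.1 CPM) and enteroendocrine genes (16.1 CPM). These levels therefore did not separate stromal genes from those of the rarer epithelial cells. The sums that follow cover lists of different length. The 6 general epithelial genes, among them Epcam and Cdh1, summed to 1860 to 2000 CPM within 50000 bp in aged libraries and 1740 to 1930 CPM in young ones. Within 1000 bp of the TSS the same list lay the other way with no overlap, at 558 to 593 CPM in aged and 607 to 620 CPM in young, with 4 of 5 tested genes below 0 and a median log2 fold change of -0.09. Enterocyte genes (10 of 10 tested) summed to 840 to 937 CPM in aged and 844 to 893 CPM in young, and Paneth cell genes (4 of 6 tested), which share the Atoh1-dependent origin of goblet cells, to 50.1 to 59.8 CPM in aged and 50.1 to 60.2 CPM in young. Of the other cells of the epithelium, stem and cycling cell genes summed to 502 to 525 CPM in aged and 487 to 522 CPM in young, and enteroendocrine genes to 100 to 124 CPM in aged and 107 to 124 CPM in young. The summed counts of tuft cell genes did not overlap, with 71.1 to 82.3 CPM in aged and 64.1 to 70.5 CPM in young. Of 5 tested tuft cell genes, 4 lay above 0 and 1 below, and the smallest adjusted p was 0.4 by edgeR. How often such list sums do not overlap, for tuft cell genes or for the epithelial promoters, was not counted. Leukocyte genes, which the CD45 gate should leave out, summed to 30.6 to 38.5 CPM in aged and 28.4 to 31.8 CPM in young, and some genes of that list were not analysed here. All 6 tested leukocyte genes of the 10 listed lay above 0, with a median log2 fold change of 0.20 and a smallest adjusted p of 0.0567 by edgeR. Stromal, endothelial and nerve genes summed to 224 to 232 CPM in aged and 217 to 232 CPM in young. None of the marker lists had a called gene at either distance by edgeR or DESeq2, and their part in the Foxa1 and Capn9 results was not tested.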

How the data were processed

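Accessibility was measured by ATAC-seq in 6 libraries, each sequenced on 4 lanes that share 1 column of counts. The authors deposited unnormalised counts for a shared set of peaks, beside a table of each peak's position, class, nearest gene and distance to its TSS. The submitters' processing notes name BWA 0.7.17-r1188, MACS2 2.2.7.1 and featureCounts 2.0.1 and the build GRCm38. Peak caller settings, any shift for the Tn5 offset, and whether reads or fragments were counted, are not given in the sources used; nor is the release of the gene annotation.

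From these counts, edgeR 4.0.16 in R 4.3.3 gave CPM (filterByExpr, TMM scaling) and a quasi-likelihood test with robust dispersions, fitted over all peaks or genes with age as the only term. Calls were made at a Benjamini-Hochberg adjusted p below 0.05. Values per gene sum the counts of peaks assigned to its Ensembl ID within 50000 or 1000 bp, and each is scaled to its own table's total, so these CPM are not on the scale of single peaks. The test was checked on simulated counts. DESeq2 1.42.0, RLE scaling, no filter, other distances and thresholds, and leaving out each library were alternatives.

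Between same-numbered aged and young libraries, deviations from the mean of the age correlated at 0.265, 0.199 and 0.148 (numbers 1, 2 and 4). All were above the 0.1 taken to show pairing, and different numbers gave -0.205 to 0.0285. Deviations within an age cancel out, so positive values for the same number by themselves lower those for different numbers. The contrast between them is therefore not independent support. What a number marks is not stated, so a fit with the replicate number as a block is an alternative. The members and lists were chosen with earlier results of these data known. Named for each gene were the peak nearest to the TSS, the one with the highest CPM per kb, the one with the smallest p and any called peak, and for each wider list the 3 genes of smallest p (or fewer) and any called gene; peaks whose ages did not overlap, start-site peaks and the single peaks of Capn9 were added after their values were seen. Motifs were searched in RefSeq promoter windows, since no genome sequence was used here, and TATAAA was added later. Counting intervals are not given, since the spread between libraries was the error used.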

Additional observations from a re-analysis of the deposited data

How the results depend on the processing

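The count of called goblet gene peaks, 1 in the analysis described, stayed at 1 under RLE scaling, without a filter, with DESeq2, with the replicate block, within 10000 bp, at an adjusted p below 0.1 and without any single library. It was 0 within 1000 bp, 4 at an unadjusted p below 0.05, and 0 when peaks were taken by the gene named in the annotation column, an alternative chosen after seeing the data; the called Foxa1 peak is not in either of those peak sets of 0. The wider lists within 50000 bp had 1 call, 2 with the replicate block (Capn9 and Galnt4) and 0 to 1 without single libraries. The block changed no other call among the members and the named genes. Of 669 alternative values of 67 single results, 665 kept their call, 3 lost it (Capn9), 1 gained it (Galnt4) and 0 called values reversed; 52 values of uncalled results changed sign. Over all peaks the 2077 calls became 3998 with the block (3.09% of tested peaks), 1291 with DESeq2 and 1216 without young 2. Over all genes within 50000 bp the 500 calls became 1262 with the block (4.63%), 315 without aged 4 and 272 without young 2. The 242 promoter calls became 464 with the block (3.34%) and 161 without young 2. The cause was not tested. Depth limits the smallest peaks: in young 4 the peak of Zg16 at -3244 bp held 0 counts and the peak at -791 bp held 1.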
